A study of Homo sapiens with 8 samples.

Results

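The genes described are 48 genes of DNA replication and of entry into S phase, out of 20503 genes named on the arrays. They were chosen as a list of origin licensing, replisome and nucleotide supply genes and not by how they moved, though with earlier results of these data known. The study asked what silencing of SFPQ, a nuclear RNA- and DNA-binding protein, does in epithelial ovarian cancer (EOC) cells. RNA of the EOC lines MDAH (MDAH-2774) and SKOV3 was measured on 8 one-colour Agilent arrays, in 4 groups of 2. The silenced group of each line held 1 array of cells with sh-SFPQ#2 and 1 of cells with sh-SFPQ#3, which are different shRNAs against the same gene, and the labels name no drug treatment of these samples. The controls of each line are labelled as carrying a control shRNA, but in the study's supplement 1 of the 2 is the parental line, so they are called controls here. The silenced arrays of a line are of differently transduced cells, no condition of a line was measured again in a separate culture as far as the sources used here say, and p-values measure the spread between these arrays alone. All 8 arrays lay on 1 slide with each line in a row of its own, so that the position on the slide and the line cannot be told apart.

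Before S phase, the origin recognition complex with CDC6 and CDT1 loads the MCM2-7 helicase on DNA, a step that geminin (GMNN) blocks later in the cycle. Cyclin E with its kinase and the CDC7 kinase then start the origins, CDC45 and the GINS complex join the helicase, and DNA polymerase alpha with its primase begins each new strand for polymerases delta and epsilon to extend. Many of these genes are transcribed in late G1 under E2F factors, which RB1 restrains, and proliferating tumour cells generally carry their messages at high levels.

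The promoters of the list are shown because such genes are known as E2F targets. Of the 48 genes, 41 matched a promoter in RefSeq (GRCh38.p14, 250 bases before to 50 after each listed start), and MCM4, MCM5, GINS4, POLD3, RPA2, RPA3 and CCNE2 are only named. The E2F motif was searched as TTTGGCGC, TTTGCCGC, TTTCGCGC or TTTCCCGC on both strands, where a match on one strand can overlap a match on the other. At least 1 such match lay in a promoter of 21 of the 41 genes (51.2%), against 6.23% of the 12071 tested genes with a promoter, and 3.31% of all 35116 promoters held one. CCAAT stood in promoters of 24 of the 41 genes (58.5%, against 42.7% of tested genes and 34.6% of all promoters), GGGCGG in those of 31 (75.6%, against 73.3% and 45%) and TTTGAA in that of RRM1 alone (2.44%, against 13.9% and 15.2%). These are matches of letters and not measured binding. The 160 bases before the start are given for 5 genes, in lower case with the E2F matches in capitals. E2F1 lies on the minus strand at chr20:33686386-33686545 and held 2 matches. MCM6, on the minus strand at chr2:135876444-135876603, held 4, as overlapping pairs. CDT1, on the plus strand at chr16:88803629-88803788, and POLA1, on the plus strand at chrX:24693758-24693917, held 1 each. CCNE1, on the plus strand at chr19:29811831-29811990, held none of these letters in its window.
E2F1: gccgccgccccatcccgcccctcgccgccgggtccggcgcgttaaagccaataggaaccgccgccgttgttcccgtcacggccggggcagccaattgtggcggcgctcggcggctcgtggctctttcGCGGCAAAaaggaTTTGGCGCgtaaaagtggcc
MCM6: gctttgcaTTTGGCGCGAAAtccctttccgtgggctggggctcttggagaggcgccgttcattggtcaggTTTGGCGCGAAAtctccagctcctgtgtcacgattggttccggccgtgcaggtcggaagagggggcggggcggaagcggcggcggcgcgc
CDT1: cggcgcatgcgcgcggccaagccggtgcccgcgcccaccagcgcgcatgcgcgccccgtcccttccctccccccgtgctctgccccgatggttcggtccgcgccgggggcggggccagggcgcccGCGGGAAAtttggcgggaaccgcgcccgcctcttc
POLA1: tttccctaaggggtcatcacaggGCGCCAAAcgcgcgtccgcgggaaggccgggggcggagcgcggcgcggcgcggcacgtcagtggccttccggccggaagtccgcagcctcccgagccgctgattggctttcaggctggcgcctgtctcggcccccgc
CCNE1: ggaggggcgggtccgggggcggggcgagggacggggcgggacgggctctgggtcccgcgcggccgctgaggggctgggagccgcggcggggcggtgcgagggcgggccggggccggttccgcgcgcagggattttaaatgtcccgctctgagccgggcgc

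SFPQ itself was lower on every silenced array than on every control of its line. A level is given throughout as the log2 signal of the gene's probe minus the log2 of its array's 75th percentile over probes. SFPQ stood at 3.64 and 3.91 on the MDAH controls and at 2.45 with sh-SFPQ#2 and 2.10 with sh-SFPQ#3, and at 4.84 and 4.66 on the SKOV3 controls and at 3.01 and 2.48 with these shRNAs. The difference was -1.50 ± 0.23 (SE, 2 arrays against 2) in MDAH, a 2.83-fold lower level with an adjusted p of 0.0328, and -2.01 ± 0.23 in SKOV3, a 4.02-fold lower level with an adjusted p of 0.0300, both by limma over the 15552 genes tested. The 75th percentile of the signal ran from 387 to 496 on 7 arrays and was 244 on the MDAH array with sh-SFPQ#3. Of 9 epithelial and ovarian cancer markers 6 were well above background on all 8 arrays, among them KRT8, KRT18 and PAX8, while MUC16 was so on 2 arrays and WT1 on 4. Fibroblast markers reached this level on all arrays for COL1A1 alone of 5, leukocyte markers for PTPRC and CD14 of 4 and endothelial markers for CDH5 of 3, and their part in the values below was not tested. COL1A1 had higher values on the silenced arrays, from -0.89 and -0.58 on the MDAH controls to 0.20 and 0.61, and from -2.17 and -2.76 on the SKOV3 controls to -1.50 and -0.96, as did DCN in SKOV3, from -3.90 and -3.85 to -1.82 and -2.18, with 4 arrays of the 8 well above background. The fibroblast markers COL3A1 and LUM were well above background on no array. All 48 replication and G1/S genes were well above background on all 8 arrays and all were tested.

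After SFPQ silencing, POLA1 fell and CCNE1 rose on average over both lines. These were the 2 genes of the 48 (4.17%) past an adjusted p of 0.05 (limma) in that comparison, a share below the 5.65% of all genes tested. Both calls depended on single arrays, as given below. POLA1 encodes the catalytic subunit of DNA polymerase alpha, which starts every new DNA strand together with primase. It stood at 2.39 and 2.89 on the MDAH controls and at 1.50 on the sh-SFPQ#2 and 0.83 on the sh-SFPQ#3 array. In SKOV3 it was at 2.75 and 2.55 on the controls and at 2.20 on the sh-SFPQ#2 and 1.56 on the sh-SFPQ#3 array. Both silenced arrays lay below both controls in each line, and the array with sh-SFPQ#3 was the lowest in both. The average difference was -1.12 ± 0.23 (SE), a 2.17-fold lower level with an adjusted p of 0.0422 in limma, made up of -1.48 ± 0.32 in MDAH (adjusted p = 0.0754) and -0.76 ± 0.32 in SKOV3 (adjusted p = 0.254).

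CCNE1 encodes cyclin E1, which activates CDK2 at the start of S phase. It stood at 2.24 and 2.20 on the MDAH controls and at 2.68 and 2.89 with sh-SFPQ#2 and sh-SFPQ#3. In SKOV3 the controls were at 3.21 and 3.38 and the silenced arrays at 3.91 and 3.87. The groups did not overlap in either line, and the differences were 0.56 ± 0.15 (SE) in MDAH (adjusted p = 0.105, limma) and 0.59 ± 0.15 in SKOV3 (adjusted p = 0.118), which set the lines -0.03 ± 0.21 apart (adjusted p = 0.953). The average was 0.58 ± 0.11, a 1.49-fold higher level with an adjusted p of 0.0342 in limma. Both calls were lost, with none of the 48 genes past the threshold on average, when either MDAH control, either SKOV3 control or the sh-SFPQ#3 array of either line was left out. Over all 8 ways of leaving out 1 array, the average ran from -1.29 to -0.95 for POLA1 and from 0.52 to 0.63 for CCNE1. Without a filter on dim probes, which takes the number of genes tested to 20503, their adjusted p were 0.0727 and 0.0647.

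**Figure D1:**
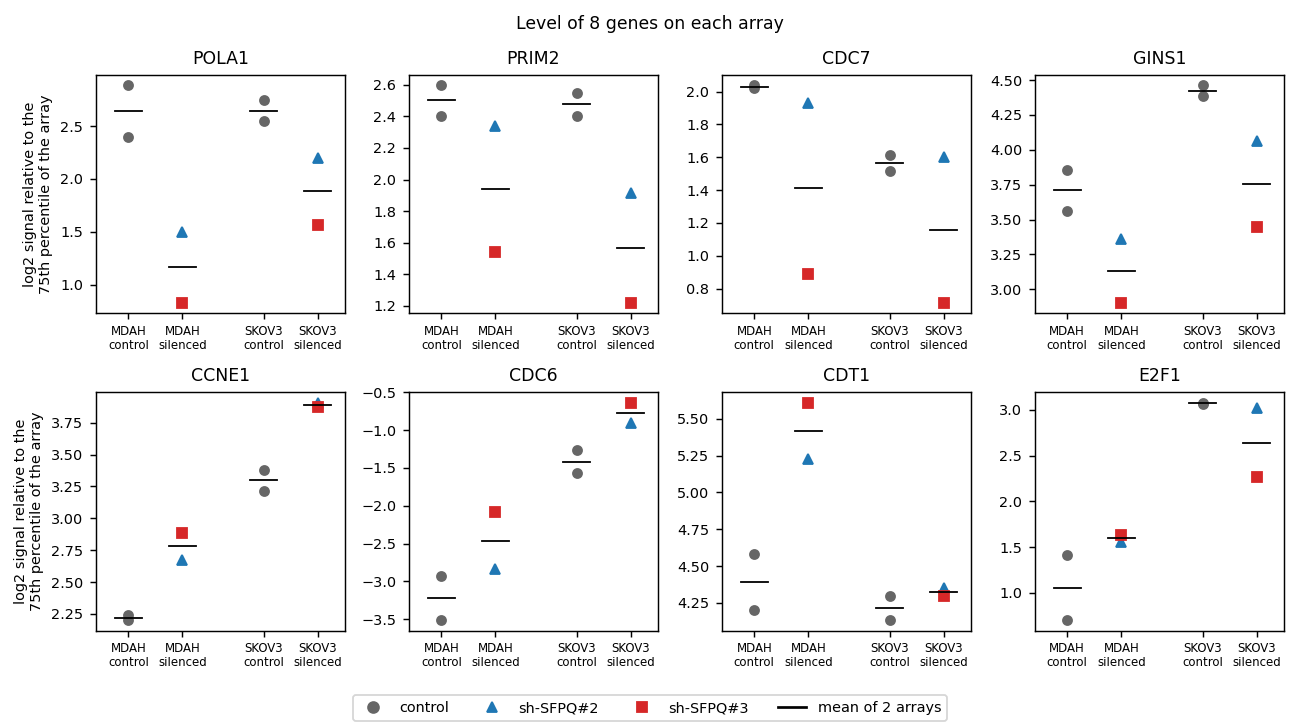
Log2 level relative to the array's 75th percentile (y axis, its own scale in each panel) of POLA1, PRIM2, CDC7, GINS1, CCNE1, CDC6, CDT1 and E2F1 on the 8 arrays, as single points by group, with a bar at the mean of 2 arrays. POLA1, PRIM2 and GINS1 lie below both controls with either shRNA in both lines, CDC7 is near its controls with sh-SFPQ#2 and low with sh-SFPQ#3, CCNE1 and CDC6 lie above their controls in both lines, and CDT1 stands clear of its controls in MDAH only by size (1.02 against 0.11).

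The subunits of the polymerase alpha and primase complex differed among themselves. PRIM2, the large subunit of primase, was at 2.41 and 2.60 on the MDAH controls and at 2.34 on the sh-SFPQ#2 and 1.54 on the sh-SFPQ#3 array. In SKOV3 it was at 2.40 and 2.55 on the controls and at 1.91 on the sh-SFPQ#2 and 1.22 on the sh-SFPQ#3 array. As for POLA1, all silenced arrays lay below the controls and sh-SFPQ#3 gave the lowest value of each line, but the average difference, -0.74 ± 0.23 (SE), did not pass (adjusted p = 0.104, limma). PRIM2 has near-identical partial copies in the genome, and its 2 other probes gave average differences of -0.43 and -0.76, with -0.01 and -0.31 in MDAH and -0.85 and -1.22 in SKOV3. PRIM1, the catalytic subunit of primase, was at 2.98 and 3.10 on the MDAH controls and at 3.26 and 3.24 on the silenced arrays, and at 2.35 and 2.51 against 2.57 and 2.24 in SKOV3. POLA2, the accessory subunit of polymerase alpha, named after its values were seen, was at 1.35 and 1.82 against 1.98 and 1.85 in MDAH and at 1.78 and 2.10 against 2.05 and 1.83 in SKOV3. So PRIM1 and POLA2 lay slightly above their controls in MDAH and overlapped them in SKOV3, with average differences of 0.09 ± 0.12 and 0.16 ± 0.15.

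The other genes of this role group make polymerases delta and epsilon, which copy the lagging and the leading strand. POLE, the catalytic subunit of polymerase epsilon, was at -1.71 and -1.40 on the MDAH controls and at -1.36 and -0.64 on the silenced arrays, and at -0.03 and -0.17 against 0.13 and 0.19 in SKOV3. Its silenced arrays lay above the controls in both lines, as did those of POLE2, its second subunit, with average differences of 0.41 ± 0.18 and 0.25 ± 0.10 (adjusted p = 0.205 and 0.180, limma). The other probe of POLE gave 0.29 in MDAH and -0.04 in SKOV3, an average of 0.13, and its groups overlapped in both lines. POLD3, an accessory subunit of polymerase delta, was at 2.55 and 2.76 against 2.62 and 2.20 in MDAH and its groups overlapped in both lines. Over the 9 genes the differences ran from -1.48 to 0.55 in MDAH and from -0.91 to 0.26 in SKOV3.

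In MDAH, most of the list sat higher after silencing, without a single gene passing the test. None of the 48 had an adjusted p under 0.05 (limma) where 2.03% of all genes did, and 14 had an unadjusted p under 0.05, where 23.1% of all genes did, and 13 of these were higher, where 13.1% of all genes were. The estimate was above 0 for 43 of the 48, against 59.8% of all genes, and both silenced arrays lay above both controls for 31 of 48, against 35.6%. For 4 of the 48 both silenced arrays lay below both controls, against 21.4%, and these were POLA1, PRIM2, GINS1 and CDC7. The median difference was 0.34, beside 0.10 over all genes tested. With the arrays quantile-normalized, 37 of the 48 were above 0 and the median was 0.23 beside 0.05, and with arrays centred on their median it was 0.45 beside 0.21.

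The 2 MDAH controls differed from each other in the same direction as the silenced arrays differed from them. Control 2 was above control 1 for 46 of the 48 genes, by a median of 0.28, where all genes had a median of 0.04 and 56.3% were higher. Against control 1 the median of the 48 was 0.38 with sh-SFPQ#2 and 0.59 with sh-SFPQ#3, beside 0.11 and 0.14 over all genes. Against control 2 it was 0.10 and 0.31, beside 0.05 and 0.09 over all genes. The median over the list was accordingly 0.20 without control 1 and 0.50 without control 2. The part of this difference between controls in the result was not tested, and which of them is the parental sample, if any, is not given by the labels. In SKOV3, control 2 minus control 1 had a median of -0.02.

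**Figure D2:**
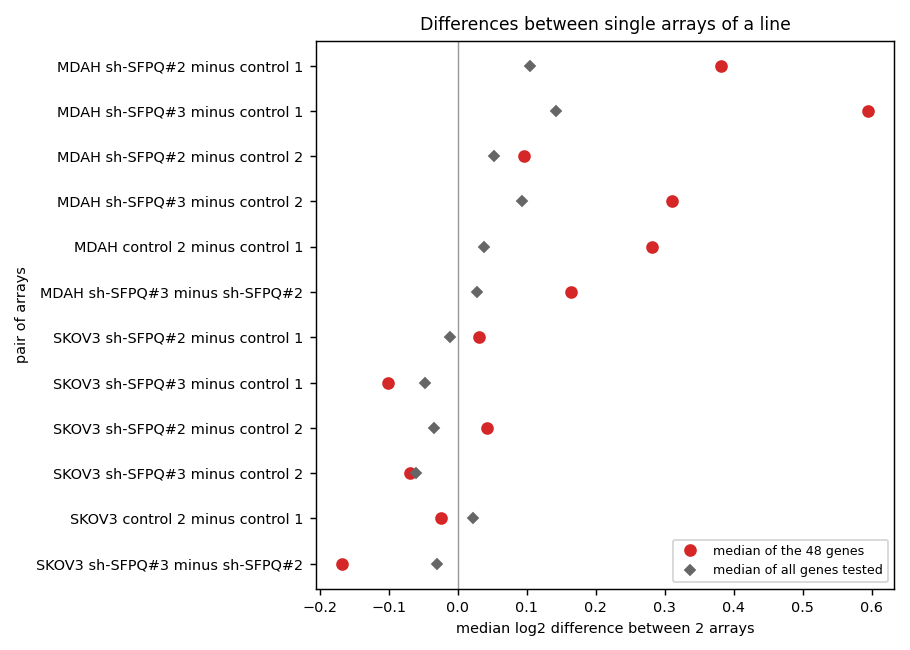
Median log2 difference (x axis) between each pair of arrays of a line, over the 48 genes (circles) and over all genes tested (diamonds). In MDAH the difference between the 2 controls, 0.28, is larger than that between sh-SFPQ#2 and control 2, 0.10, and in SKOV3 the medians of the list stay between -0.17 and 0.04.

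Origin licensing held the 2 highest differences in MDAH, those of CDT1 and ORC6. CDT1, the loader of the helicase, was at 4.20 and 4.58 on the MDAH controls and at 5.23 with sh-SFPQ#2 and 5.61 with sh-SFPQ#3. This is a difference of 1.02 ± 0.20 (SE), a 2.03-fold higher level with an adjusted p of 0.0630 in limma. In SKOV3 it was at 4.29 and 4.13 on the controls and at 4.35 and 4.30 on the silenced arrays, a difference of 0.11 ± 0.20. CDT1 passed in MDAH with normexp background correction, with arrays centred on the median and with a robust prior, while its adjusted p ran from 0.0327 to 0.142 over 10 alternatives.

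ORC6, the smallest subunit of the origin recognition complex, was at 2.12 and 2.33 on the MDAH controls and at 2.85 on the sh-SFPQ#2 and 3.33 on the sh-SFPQ#3 array, a difference of 0.87 ± 0.20 (adjusted p = 0.0847, limma). In SKOV3 it was at 2.86 and 2.78 against 2.74 and 2.91, so that the silenced arrays enclosed the controls. CDC6, the ATPase that brings CDT1 to origins, was at -3.51 and -2.93 on the MDAH controls and -2.84 and -2.08 on the silenced arrays, and at -1.26 and -1.57 against -0.91 and -0.64 in SKOV3. It lay above the controls in both lines. As processed here, its average was the highest of the list, 0.70 ± 0.22 (adjusted p = 0.105, limma). That rank depended on the processing. Over 9 alternatives the average of CDC6 ran from 0.42 to 0.74, and that of CCNE1 from 0.58 to 0.62. CDC6 was also dim in MDAH. The lowest level well above background was -4.87 on control 1 and -3.81 on the sh-SFPQ#3 array. ORC5 was also above its controls in both lines, by 0.56 ± 0.14 in MDAH and 0.12 ± 0.14 in SKOV3. ORC3 differed by 0.27 and 0.05, ORC4 by 0.05 and -0.01, and GMNN, the inhibitor of CDT1, by 0.14 and -0.04. The other probe of ORC4, which was dimmer, gave 0.32 and 0.43 and lay above its controls in both lines. All 9 licensing genes had an estimate above 0 in MDAH, with a median of 0.56, against 6 of 9 and a median of 0.05 in SKOV3.

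The MCM2-7 genes, which encode the ring of the replicative helicase, gave a median of 0.55 in MDAH with 6 of 6 above 0, and of -0.08 in SKOV3 with 2 of 6. MCM2 was at 3.24 and 3.76 on the MDAH controls and at 4.01 and 4.60 on the silenced arrays, and at 4.38 and 4.43 against 4.63 and 4.46 in SKOV3. MCM4 was at 1.79 and 2.32 against 2.71 and 2.78 in MDAH and at 3.17 and 3.20 against 3.23 and 2.91 in SKOV3. In MDAH both were above their controls, by 0.80 ± 0.25 and 0.69 ± 0.21 (adjusted p = 0.140 and 0.134, limma). MCM7 differed by 0.42 in MDAH and 0.11 in SKOV3, but by 0.12 and 0.34 with quantile normalization, which turned the order of the lines. Under quantile normalization the SKOV3 median of this group turned to just above 0, as did those of the polymerase group (0.03) and the RPA genes (0.02).

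Origin firing held genes of both directions. GINS1, a subunit of the GINS complex that completes the helicase, was at 3.56 and 3.86 on the MDAH controls and at 3.36 on the sh-SFPQ#2 and 2.91 on the sh-SFPQ#3 array. The SKOV3 controls were at 4.46 and 4.39 and the silenced arrays at 4.06 and 3.45. It was below its controls on all 4 silenced arrays, with an average of -0.62 ± 0.18 (SE) and an adjusted p of 0.0917 in limma. The complex has 4 subunits, and the others gave other values: GINS2 differed by 0.50 in MDAH and -0.40 in SKOV3, GINS4 by 0.30 and -0.14, and GINS3, named after its values were seen, by 0.11 and -0.26. CDC45, the other partner of the helicase, was at 4.42 and 4.76 against 4.91 and 5.15 in MDAH and at 5.23 and 5.20 against 5.33 and 5.35 in SKOV3, above its controls in both lines with an average of 0.28 ± 0.12. MCM10, which helps to activate the helicase, differed by 0.57 ± 0.27 in MDAH and -0.18 ± 0.27 in SKOV3.

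CDC7, the catalytic subunit of the kinase that starts licensed origins, differed between the 2 shRNAs. It was at 2.02 and 2.04 on the MDAH controls and at 1.93 on the sh-SFPQ#2 and 0.89 on the sh-SFPQ#3 array. In SKOV3 it was at 1.51 and 1.61 on the controls and at 1.60 on the sh-SFPQ#2 and 0.71 on the sh-SFPQ#3 array. With sh-SFPQ#2 the level was thus close to the controls in MDAH and between them in SKOV3, while with sh-SFPQ#3 it was the lowest of each line. In a fit with a term for the shRNA, CDC7 differed with sh-SFPQ#3 by -0.96 ± 0.13 (SE), a 1.95-fold lower level with an adjusted p of 0.0259 in limma, the only one of the 48 past the threshold against 3.02% of all genes. The call was lost without any 1 of the 8 arrays, where the adjusted p ran from 0.0532 to 0.119 and the difference from -1.04 to -0.89. PRIM2 (-0.75 ± 0.14, adjusted p = 0.0571), POLA1 (-0.65 ± 0.20, 0.151) and GINS1 (-0.54 ± 0.15, 0.137) came next, and these 4 genes were the members with an unadjusted p under 0.05, all lower, where 11.3% of all genes were. The share, 8.33% of the 48, was below that of all genes. These 4 genes were also the lowest on average over both lines. The sh-SFPQ#3 arrays enter both comparisons, so the 2 rankings are not separate results. SFPQ itself differed by -0.44 ± 0.16 between sh-SFPQ#3 and sh-SFPQ#2 (adjusted p = 0.212, limma), and each shRNA was measured on 1 array in each line, so that within a line the shRNA and the array cannot be told apart. At the other end, CDC6 was 0.51 ± 0.25, POLE 0.39 ± 0.21 and ORC6 0.32 ± 0.15 higher with sh-SFPQ#3, and none of them passed. Of the other replication genes counted below, DONSON, a factor that helps to assemble the helicase, passed in this comparison with -0.80 ± 0.13 (adjusted p = 0.0392, limma).

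**Figure D3:**
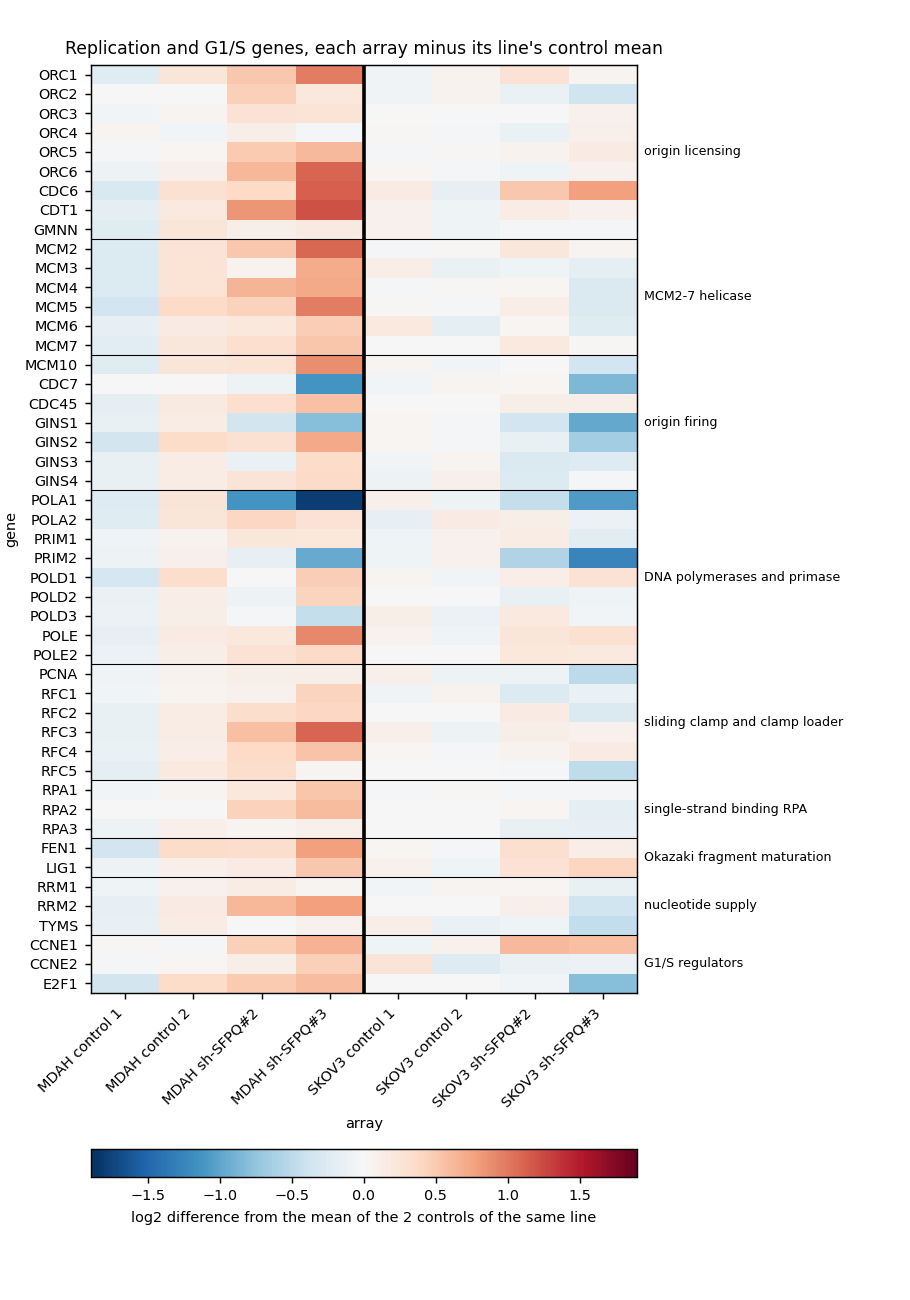
Colour map of the 48 genes (rows, by role group) on the 8 arrays (columns), as the log2 difference from the mean of the 2 controls of the same line. POLA1, PRIM2, CDC7 and GINS1 stand out as blue rows with sh-SFPQ#3 in both lines. Most other rows are red on the MDAH silenced arrays and already paler red on MDAH control 2. Beside these 4 genes the SKOV3 columns hold few strong colours, among them CDC6 and CCNE1 in red and, with sh-SFPQ#3, E2F1 and GINS2 in blue.

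Among the clamp loader genes, which open the PCNA ring onto DNA, RFC3 was at 0.95 and 1.22 on the MDAH controls and at 1.66 and 2.19 on the silenced arrays, a difference of 0.84 ± 0.21 (adjusted p = 0.0977, limma). The SKOV3 controls were at 1.57 and 1.38 and the silenced arrays at 1.59 and 1.55. Its other probe gave 0.35 in MDAH and -0.32 in SKOV3, and this difference between the probes was not tested. RFC4 was above its controls in both lines, by 0.46 ± 0.16 and 0.12 ± 0.16, RFC5 differed by 0.20 and -0.25, and RFC1 by 0.25 and -0.19. With PCNA and RFC2, all 6 genes had an estimate above 0 in MDAH (median 0.31) and 2 of 6 had one in SKOV3 (median -0.12). The RPA genes, whose proteins cover single-stranded DNA, differed by 0.07 to 0.52 in MDAH, highest for RPA2, and by -0.15 to -0.04 in SKOV3, lowest for RPA3.

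The genes of Okazaki fragment maturation gave positive estimates in both lines. LIG1, the ligase that seals the fragments, was at 3.26 and 3.47 on the MDAH controls and at 3.53 and 3.88 on the silenced arrays, and at 4.23 and 4.07 against 4.43 and 4.56 in SKOV3. It was above its controls in both lines by 0.34 ± 0.18 (SE) each, with an adjusted p of 0.153 in limma for the average. FEN1, the nuclease that trims them, was at 1.20 and 1.91 against 1.88 and 2.34 in MDAH, where the groups overlapped, and at 2.99 and 2.93 against 3.27 and 3.09 in SKOV3. Of the 3 nucleotide supply genes, whose MDAH median turned from 0.10 to -0.05 under quantile normalization, RRM2, the small subunit of ribonucleotide reductase, was at 1.14 and 1.44 against 1.92 and 2.06 in MDAH and at 2.83 and 2.81 against 2.91 and 2.44 in SKOV3. Its silenced arrays lay above the controls in MDAH alone, by 0.70 ± 0.20 (adjusted p = 0.122, limma). TYMS, which makes thymidylate, differed by 0.04 in MDAH and -0.27 in SKOV3 and overlapped its controls in both.

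In SKOV3, none of the 48 genes passed an adjusted p of 0.05 (limma), where 0.997% of all genes did, and 4 had an unadjusted p under 0.05, where 19.5% of all genes did. These 4 were CCNE1, higher, and PRIM2, GINS1 and POLA1, lower. Both silenced arrays lay above both controls for 13 of 48 (25.9% of all genes) and below them for 12 (32%). The median was -0.06 beside -0.04 over all genes tested, and 18 of 48 estimates were above 0 (46.1% of all genes). Quantile normalization turned the median to 0.02, so that no direction of the list can be given in this line. The signs of single genes in SKOV3 also depended on the probe. Of 14 further probes of members, 8 gave the same sign as the brightest probe of their gene here, against 13 in MDAH. The median difference between sh-SFPQ#3 and sh-SFPQ#2 was -0.17 in SKOV3, with 33 of the 48 lower, and 0.16 in MDAH, with 35 of the 48 higher.

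Set side by side, 11 of the 48 genes lay above the controls of both lines (12.4% of all genes tested), 3 below those of both (10.3%), which were POLA1, PRIM2 and GINS1, and 4 above in MDAH and below in SKOV3 (8.37%). On average over the lines the median was 0.16 beside 0.04 and 38 of 48 estimates were above 0 (55.2%), and 14 of 48 had an unadjusted p under 0.05 (26.4%). The difference between the lines was tested directly, as the silencing difference in MDAH minus that in SKOV3. None of the 48 passed an adjusted p of 0.05 in limma, where 0.0965% of all genes did, and 7 had an unadjusted p under 0.05, where 14.9% of all genes did, and all 7 were higher in MDAH, where 8.23% of all genes were. The estimate was above 0 for 43 of 48 (59.2% of all genes), with a median of 0.36 beside 0.12. This depended on the scaling: 35 of 48 were above 0 with quantile normalization, with a median of 0.19 beside 0.02 over all genes, and 45 with arrays centred on their median, with 0.51 beside 0.26. The highest were E2F1 (0.97 ± 0.44), CDT1 (0.91 ± 0.29, adjusted p = 0.267), GINS2 (0.90 ± 0.42) and ORC6 (0.86 ± 0.28), and the lowest was POLA1 (-0.71 ± 0.45, 95% interval -1.79 to 0.37). E2F1, the transcription factor whose motif was searched above, was at 0.70 and 1.41 on the MDAH controls and at 1.55 and 1.64 on the silenced arrays, and at 3.07 and 3.08 against 3.02 and 2.26 in SKOV3. Its silenced arrays were above the controls in MDAH and below them in SKOV3, where only the array with sh-SFPQ#3 was far from them.

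**Figure D4:**
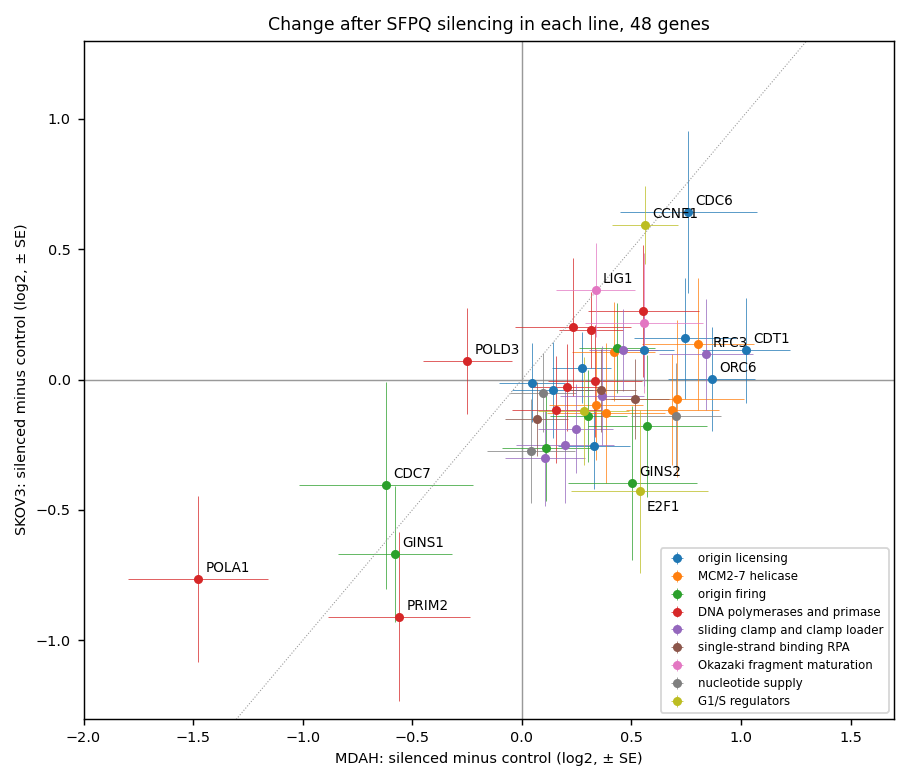
Silenced minus control in MDAH (x axis) against SKOV3 (y axis) for the 48 genes, log2 with SE bars of the limma fit, coloured by role group, with the line of equal differences dotted. Most points lie right of 0 and below the dotted line, POLA1, PRIM2, GINS1 and CDC7 lie at the lower left, and CCNE1 and CDC6 at the upper right.

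Genes with and without an E2F match in the promoter had similar medians. Only exact spellings in a short window were searched, so a gene without a match may still be under E2F control. The comparison is therefore not one of E2F targets with other genes. The 21 with a match had a median difference of 0.34 in MDAH and -0.04 in SKOV3, and the 20 without had 0.36 and -0.03. Both silenced arrays lay above both MDAH controls for 13 of the 21 and 13 of the 20, against 35.6% of all genes. POLA1, GINS1 and CDC7 held a match as CDT1 did, and CCNE1, ORC6 and PRIM2 held none in this window.

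The controls of the lines differed for 27 of the 48 genes at an adjusted p of 0.05 (limma), a share close to the 57.5% of all genes. Of these, 6 were higher in MDAH (26.8% of all genes) and 21 lower (30.7%), and the median of the list was -0.39 beside -0.05. The G1/S regulators were all lower in MDAH. CCNE2, cyclin E2, was at -1.22 and -1.16 in MDAH and at 1.42 and 0.93 in SKOV3, a difference of -2.36 ± 0.21 (SE), or 5.13-fold. E2F1 differed by -2.01 ± 0.31, or 4.04-fold, and CCNE1 by -1.07 ± 0.15. CDC6 differed by -1.81 ± 0.31 and RRM2 by -1.53 ± 0.20. POLE, FEN1, MCM10, TYMS and MCM4 followed between -1.45 and -1.13, while RFC1, RFC5, GMNN, MCM2, LIG1, ORC4, RFC4, CDC45, RPA2, ORC6 and GINS4 completed the list, down to -0.56 for GINS4.

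The 6 genes that were higher in the MDAH controls belonged to complexes that also held subunits called lower, or subunits whose difference did not pass. MCM7 was at 7.56 and 7.99 in MDAH and 6.55 on both SKOV3 controls, a difference of 1.23 ± 0.19 (2.35-fold), while MCM2 and MCM4 were lower. ORC5 differed by 1.19 ± 0.14 and ORC3 by 0.48 ± 0.14, while ORC4 and ORC6 were lower. RPA3 differed by 1.12 ± 0.14 while RPA2 differed by -0.62 ± 0.15, and POLE2 by 1.06 ± 0.15 while POLE differed by -1.45 ± 0.25. PRIM1 was higher by 0.61 ± 0.17, and for PRIM2, POLA1 and POLA2 the difference did not pass. The 4 genes lowest after silencing, POLA1, PRIM2, GINS1 and CDC7, were not called between the controls, with differences of -0.01, 0.02, -0.71 and 0.47. GINS1 lay next to the threshold (adjusted p = 0.0513, limma) and passed it in 6 of 10 alternatives and in 4 of 8 fits without 1 array, with differences from -0.87 to -0.49, and CDC7 passed in 2 of the 10. Of the 14 further probes of members, 10 gave the same sign for this difference as the brightest probe of their gene. Without MDAH control 1 the count of genes called was 17, and the number without each other array lay between this and 29.

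**Figure D5:**
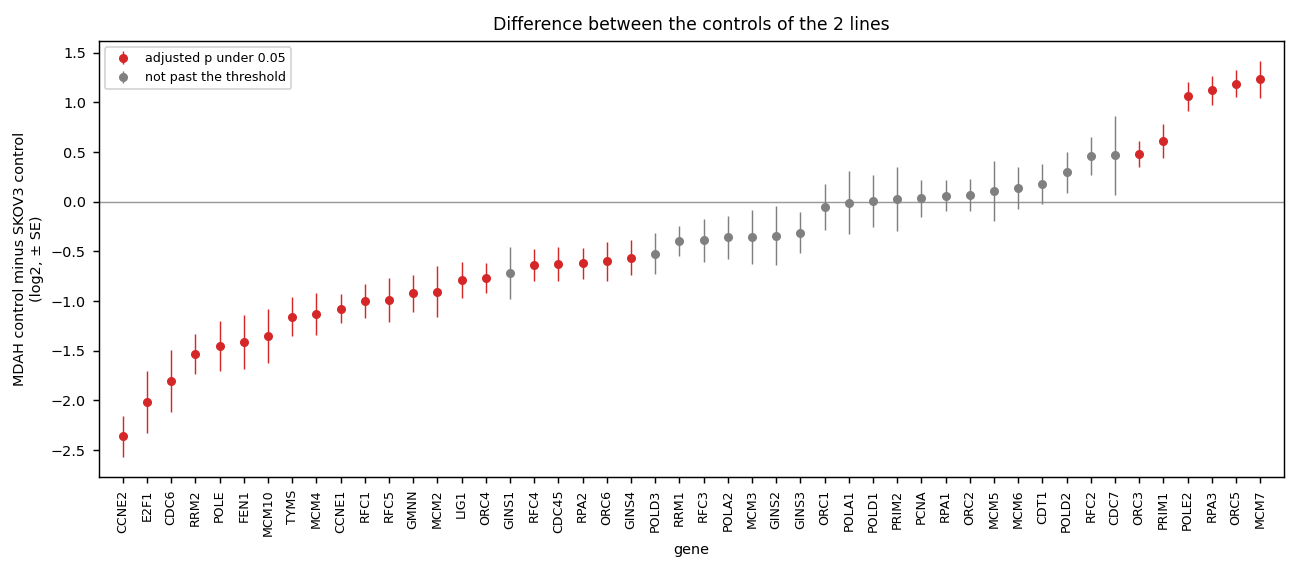
MDAH control minus SKOV3 control for each of the 48 genes (log2, bars are SE of the limma fit), in order of size, with genes past an adjusted p of 0.05 in red. The differences run from -2.36 for CCNE2 to 1.23 for MCM7, with 21 genes called lower and 6 called higher in MDAH.

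Other genes of the same pathways, from lists that are not part of the 48, gave no call for silencing. Of 27 other G1/S control genes, 35 other replication genes and 9 other nucleotide supply genes, 0 passed an adjusted p of 0.05 (limma) in MDAH, in SKOV3, on average or in the difference between lines. At an unadjusted p under 0.05 the counts over these 71 genes were 13, 4, 7 and 7 (18.3%, 5.63%, 9.86% and 9.86%), where 23.1%, 19.5%, 26.4% and 14.9% of all genes had one. Their medians in MDAH were 0.31, 0.27 and 0.22, beside 0.34 for the 48, and in SKOV3 -0.13, -0.10 and -0.26, beside -0.06. Between the controls, 5 of the 27 were higher in MDAH and 11 lower, 6 of the 35 higher and 14 lower, and 0 of the 9 higher and 5 lower, where 26.8% of all genes were higher and 30.7% lower. Cyclin D2 (CCND2) and CDKN1A, the inhibitor p21, were among the 5, and both were well above background on 4 arrays alone, so no fold is given for them. The remaining genes of the 5 were E2F2 (1.25 ± 0.28), E2F5 (0.97 ± 0.21) and RBL1 (0.57 ± 0.18). RB1, the repressor of E2F factors, was lower in the MDAH controls, with a difference of -1.67 ± 0.17, as were the repressor E2F7 with -2.58 ± 0.23 and CCNA2, cyclin A2, with -1.69 ± 0.20. Genes of the E2F and RB1 families thus went both ways between the controls.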

How the data were processed

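Total RNA of 8 samples was hybridised to one-colour Agilent arrays of an hg19 design with 62976 spots. The deposited scanner files hold spot intensity from Feature Extraction, background-subtracted by the software and not normalized between arrays. The labels name version 10.7.3.1 of Feature Extraction and the file headers a later one. The authors' deposited table holds log2 values centred per probe, with the normalization between arrays not given in the sources used here. Its scale and direction matched quantile-normalized, centred scanner values (r from 0.991 to 1.00 per array, across probes), and it served as an alternative.

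Here, control and outlier spots were dropped and repeat spots averaged per probe, and log2 intensity minus each array's 75th percentile was used. Of 50599 probes, 28174 (55.7%) were named through RefSeq accessions, giving 20503 genes, each taken at its brightest probe. A gene was tested (15552 genes) if both arrays of any group were well above background. 16 probe values missing after the outlier filter were filled for the scaling and the choice of probe and left out of the fits, none of them in the 48 genes. limma 3.58.1 in R 4.3.3 fitted 4 group means (4 residual degrees of freedom), with an added shRNA term for the comparison of shRNAs (3 residual degrees of freedom), and Benjamini-Hochberg adjustment ran over all tested genes at 0.05. Precision is limited by the number of arrays, 2 in each group.

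The members and the gene lists were chosen with earlier results of these data known. Genes named are those past the threshold in any comparison, the 5 highest and 5 lowest averages over the lines, and the 3 highest and 3 lowest in each other comparison, while further pathway genes are named only where they passed. Alternatives were quantile scaling, median centring, normexp background correction (offset 50, on median spot signals), the authors' values, no filter and a stricter filter, the mean over probes, only the groups compared, a block for the replicate number, a robust prior, and leaving out each array. The scripts were tested on simulated data. Promoters are those of RefSeq on GRCh38.p14.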

Additional observations from a re-analysis of the deposited data

Results flagged for a closer look

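In 4 of the 48 genes both silenced arrays lay above both controls in MDAH and below both in SKOV3. E2F1 differed by 0.54 in MDAH and -0.43 in SKOV3, a difference between the lines of 0.97 (adjusted p = 0.353, limma). ORC2, a subunit of the origin recognition complex named here after its values were seen, differed by 0.33 and -0.25, a difference of 0.58 (adjusted p = 0.325, limma), and its other probe gave -0.62 and -0.82. RFC1, the large subunit of the clamp loader, differed by 0.25 and -0.19, a difference of 0.43 (adjusted p = 0.422, limma). RPA1, the large subunit of RPA and also named after its values were seen, differed by 0.36 and -0.04, a difference of 0.40 (adjusted p = 0.427, limma), and its other probe gave 0.43 and 0.77. None of these differences passed the threshold. Opposite order of this kind was found for 8.37% of all genes tested, close to the 8.33% of the list. The SKOV3 value of RPA1 was near 0, and under another scaling RPA1 and RPA2 lay above 0 there while RPA3 stayed below.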

How the results depend on the processing

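No value past the threshold reversed its direction under the alternatives run. In MDAH the count of the 48 genes past the threshold was 0, against 1 with arrays centred on the median (CDT1), 2 with normexp (CDT1, POLA1), 2 with a robust prior (CDT1, POLA1) and 0 to 4 without single arrays, with 4 (CDT1, ORC6, POLA1, RFC3) without the sh-SFPQ#2 array of MDAH, and the median ran from 0.20 to 0.50 without single arrays. In SKOV3 the count was 1 with normexp (CCNE1) and 0 without any single array, and the median of -0.06 became 0.0229 with quantile scaling, 0.0335 with normexp, 0.0251 with the authors' values and -0.112 to 0.0369 without single arrays. On average over the lines the count of 2 became 1 with median centring (CCNE1), 4 with normexp (CCNE1, CDT1, GINS1, POLA1), 0 without a filter and 0 to 8 without single arrays, with 8 without the sh-SFPQ#2 array of MDAH, and the median ran from 0.06 to 0.23. The difference between lines gave 0 without any single array, with medians from 0.24 to 0.48, while its median was 0.175 with normexp, 0.193 with the authors' values, 0.195 with quantile scaling and 0.508 with median centring. Between controls the median was -0.55 with median centring and -0.24 with normexp, and without single arrays the count ran from 17 to 29 and the median from -0.62 to -0.28. Between shRNAs the count was 2 (CDC7, PRIM2) with median centring, normexp, the stricter filter and the robust prior, 0 without a filter and 0 without any single array, with medians from -0.17 to 0.16. The causes of these changes were not tested.

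The replicate numbers pair the arrays by number alone. Across genes, which are not independent replicates, the difference between the arrays of a group correlated between the lines at r = 0.36 for the silenced arrays, where the number names the shRNA, and at r = 0.08 for the controls. With the replicate block, 1 gene passed in MDAH (POLA1), 1 in SKOV3 (PRIM2), 5 on average (CCNE1, CDC7, GINS1, POLA1, PRIM2) and 0 between shRNAs. Among all genes, the count past the threshold in MDAH was 316, against 862 with the replicate block, 624 with normexp, 143 with only the groups compared, 114 with the stricter filter, 9 without control 1 and 1091 without the sh-SFPQ#2 array of MDAH. The MDAH array with sh-SFPQ#3 was the dimmest, so dim genes had least signal over background there, while all of the 48 were well above background on it. Of markers well above background on no array, COL3A1 was at -5.87 there, against -6.93 and -6.95 on the MDAH controls. LUM was at -5.96, against -7.02 and -7.05, and CD3E at -5.19, between its controls at -6.68 and -5.01. The part of this in the higher values of dim genes such as CDC6 was not tested.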
